A study of Homo sapiens with 4 samples.

Results

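Imprinted genes are expressed mainly from the copy inherited from 1 parent, because DNA methylation marks laid down in the egg or the sperm set the parental copies apart. The marks are copied at each cell division and bound by zinc finger proteins that recruit silencing cofactors, and several neighbouring genes often share 1 such control region. A list of 48 human imprinted genes was followed here in 4 prostate cancer cell lines. The list was chosen from the MEST counts, which were very low in LN-OlapR and high in LNCaP, to see whether other imprinted loci showed the same pattern, so the MEST values below are a description of what led to the list. Of the 48 genes, 37 had an entry among the 22637 genes of the table, and the other 11 were not analysed here (MEG3, MEG8, MEG9, DLK1, RTL1, MAGEL2, HYMAI, DLX5, NAP1L5, DIRAS3 and KCNK9). Gene counts do not tell the parental copies apart, so the values give levels and do not show whether a gene had kept or lost its imprint.

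RNA-seq was performed on LNCaP, an androgen-responsive prostate adenocarcinoma line, on C4-2B, a castration-resistant line derived from it, and on LN-OlapR and 2B-OlapR, which resist olaparib, with 1 library per line. Olaparib is a PARP inhibitor, and the resistant lines were derived from LNCaP and C4-2B, respectively, by exposure to rising doses of the drug for about a year. The labels call all 4 lines untreated, whereas the study's methods state that the resistant lines were kept in medium with olaparib, so effects of long selection and of the drug itself cannot be told apart. The comparison of LN-OlapR with LNCaP is called the LN pair and that of 2B-OlapR with C4-2B the 2B pair.

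Library totals ranged from 19950537 to 26394267 estimated counts. Levels are given as normalized CPM, the counts as CPM after scaling by edgeR's TMM factors. A gene was analysed in a comparison when its mean over the 2 libraries was at least 1 normalized CPM, and it was called when the libraries differed by at least 2-fold. Each line had 1 library, so replicates were lacking and no test was made. The exact 95% intervals printed reflect only the error of counting. For fold bounds, 0 counts were taken as 3, a fixed limit that is not the end of these intervals. All 10 luminal prostate markers had entries, and their summed level was 4116 to 7615 normalized CPM. Of 3 basal, 3 neuroendocrine, 3 stromal and 3 leukocyte markers, 1 each had an entry (KRT14, SYP, COL1A1 and CD68), with levels of 0.11 to 0.56, 2.44 to 3.13, 7.14 to 16.1 and 0.41 to 5.14 normalized CPM. Past the 2-fold limit were KLK3 (5.66), KLK2 (2.56) and TMPRSS2 (1.28) in the LN pair and TMPRSS2 (1.01) in the 2B pair among the luminal markers, CD68 (3.59) in the LN pair and COL1A1 (-1.17) in the 2B pair, as log2 ratios. The LNCaP library stood apart from the rest in the androgen-regulated gene KLK3, with 1428 counts against 38749 to 62636 in the other libraries, and in CD68, with 11 counts against 45 to 120. The part of these differences in the results for imprinted genes was not tested, and the values of LN-OlapR against C4-2B, which leave the LNCaP library out, are given below.

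MEST, the paternally expressed gene that led to the list, encodes a membrane protein of the endoplasmic reticulum with the fold of a hydrolase. In GENCODE release 29 on GRCh38 it lies on the plus strand at chr7:130486171-130506465, and it has several start sites. The counts are per gene and do not tell transcripts from these starts apart. MESTIT1, a noncoding RNA, starts inside it and runs the other way over 4863 bases that both genes cover, and the end of COPG2 overlaps the end of MEST by 228 bases. The promoter windows below, from 250 bases before to 50 after a start, were taken from RefSeq on GRCh38.p14 and are shown because MEST, MESTIT1 and WT1 were at or near 0 counts in LN-OlapR. Capitals mark CpG dinucleotides, the sites at which imprints are methylated, and no methylation was measured in these libraries.
MEST downstream start, chr7:130491835-130492134, plus strand: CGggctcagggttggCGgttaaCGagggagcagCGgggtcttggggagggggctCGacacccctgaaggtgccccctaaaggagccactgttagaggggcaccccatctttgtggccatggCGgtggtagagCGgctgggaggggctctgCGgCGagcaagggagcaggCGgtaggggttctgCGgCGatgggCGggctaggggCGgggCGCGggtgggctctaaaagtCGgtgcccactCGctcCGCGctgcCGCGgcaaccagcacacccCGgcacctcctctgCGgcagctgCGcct
MEST upstream start, chr7:130486097-130486396, plus strand: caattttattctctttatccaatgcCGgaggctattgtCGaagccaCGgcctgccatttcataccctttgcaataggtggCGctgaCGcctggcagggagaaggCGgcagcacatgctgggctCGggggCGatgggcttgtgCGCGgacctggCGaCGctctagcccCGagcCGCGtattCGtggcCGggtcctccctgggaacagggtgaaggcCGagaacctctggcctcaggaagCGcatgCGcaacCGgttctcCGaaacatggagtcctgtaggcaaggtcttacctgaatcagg
MESTIT1 start, chr7:130490928-130491227, minus strand: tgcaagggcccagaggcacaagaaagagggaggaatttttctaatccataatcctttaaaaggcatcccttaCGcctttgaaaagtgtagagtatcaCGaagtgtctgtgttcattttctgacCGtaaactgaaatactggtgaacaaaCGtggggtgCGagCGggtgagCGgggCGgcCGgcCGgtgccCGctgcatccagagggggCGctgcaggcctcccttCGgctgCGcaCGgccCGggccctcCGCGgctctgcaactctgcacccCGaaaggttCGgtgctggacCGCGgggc
WT1 start, chr11:32435490-32435789, minus strand: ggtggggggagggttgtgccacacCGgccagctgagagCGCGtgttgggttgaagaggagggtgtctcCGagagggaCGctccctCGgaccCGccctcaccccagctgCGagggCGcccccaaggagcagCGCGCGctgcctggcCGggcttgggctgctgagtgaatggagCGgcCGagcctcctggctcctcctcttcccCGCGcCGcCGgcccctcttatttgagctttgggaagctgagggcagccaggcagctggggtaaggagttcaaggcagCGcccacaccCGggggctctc

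The downstream MEST window held 25 CpGs, the upstream window shown and that of MESTIT1 held 22 each, and the WT1 window shown held 21. MEST has 5 windows, and those not shown held 13 (the most upstream), 16 and 22 CpGs. Over all 35116 RefSeq windows of this length the median was 14 CpGs, and over the 68 windows of the 30 listed genes that had one it was 18. The 6-base motif TGCCGC, which the imprint-protecting protein ZFP57 reads when its CpG is methylated, was searched on both strands. It occurred in 22 of the 68 windows (32.4%), against 16.7% of all windows. Counted by gene, it occurred in 14 of 30 listed genes (46.7%) and in 19.5% of all 27305 genes. The listed genes had more windows per gene (68 for 30 genes, against 35116 for 27305), and thus more places for a match. Some windows overlap, and PLAGL1 with HYMAI and SNRPN with SNURF share an identical window. The 30 genes include some without an entry among the counts, such as MEG3. The motif itself holds a CpG and the windows of the listed genes were richer in CpGs, and the shares were not adjusted for this. The downstream MEST window held 3 matches, the upstream one shown held 1, and those of MESTIT1 and WT1 held 0, which describes these letters in these windows only.

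MEST also carries a microRNA gene on its own strand. Its mature forms are shown, with the seed (bases 2 to 8) in capitals, because the microRNA gene lies within MEST. Mature microRNAs were not measured in these mRNA libraries.
hsa-miR-335-5p: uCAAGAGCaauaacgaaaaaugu
hsa-miR-335-3p: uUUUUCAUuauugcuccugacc

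The MEST count was 754 in LNCaP against 3 in LN-OlapR, and 2189 in C4-2B against 1192 in 2B-OlapR, which corresponds to 28.1, 0.13, 107 and 57.5 normalized CPM. Thus MEST was close to the counting limit in LN-OlapR alone and well expressed in the other 3 lines. The LN-OlapR level was 187-fold below that of LNCaP, a log2 ratio of -7.55 (-10.05 to -6.22), and it was the 14th lowest ratio of 15373 genes. In bulk RNA, fewer cells that express a gene and less RNA per cell cannot be told apart. 2B-OlapR was also below its parental line, with a log2 ratio of -0.89 (-0.998 to -0.79), which is short of 2-fold. C4-2B lay 3.81-fold above LNCaP, so the 2 pairs started from different MEST levels. Among 8270 genes with at least 500 counts in LNCaP, a limit set after the values were seen, 3 had at most 3 counts in LN-OlapR, namely MEST and the cancer-testis genes PAGE1 and XAGE1A.

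The transcripts that share the MEST locus were examined next. MESTIT1 had 8 counts in LNCaP against 0 in LN-OlapR, and 23 in C4-2B against 20 in 2B-OlapR. With its 0 taken as 3 counts it was at least 2.31-fold lower in LN-OlapR than in LNCaP, whereas the interval of the log2 ratio, which includes the counting error of both libraries, ended at -0.57. It was below the expression minimum in that pair. COPG2IT1, an RNA named for its place in COPG2, was not on the list and gave 35, 1, 117 and 53 counts in the same order, the pattern of MEST at a lower level. By contrast, COPG2, which encodes a subunit of the COPI vesicle coat, gave 1188, 1363, 906 and 543 counts. Its log2 ratio was 0.40 (0.29 to 0.52) in the LN pair, opposite in direction to MEST, and -0.76 (-0.91 to -0.60) in the 2B pair, close to that of MEST. Whether reads were counted by strand is not given in the sources used here, so reads of MEST and MESTIT1 may be shared between them.

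Apart from MESTIT1 and COPG2IT1, which were below the expression minimum in the LN pair and are described above, genes beside MEST did not share its low level in LN-OlapR. Within 1 Mb of the MEST start, 11 analysed genes outside the list had log2 ratios of 0.15 to 1.84 in the LN pair, with a median of 0.69, and 0 of them were 2-fold lower (beside 4.83% of all genes). The 5 that were at least 2-fold higher (beside 4.64% of all genes) were SMKR1, UBE2H, MKLN1, its antisense gene MKLN1-AS and LINC-PINT, and they started between 533 and 984 kb from MEST. CEP41, a centrosomal gene and the nearest at 43.7 kb, had a log2 ratio of 0.32. In the 2B pair the median of the same 11 genes was -0.18, their range was -0.86 to 0.82, and 0 were called. Of a list of 15 genes of the 7q32 region, 9 had entries. In the LN pair 7 of these were analysed and all 7 were above 0, whereas in the 2B pair 1 of 8 was above 0 and COPG2IT1 was at least 2-fold lower (-1.15). The low MEST count in LN-OlapR therefore stood between analysed neighbours that were level or higher, as the plot of log2 ratio by distance shows.

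**Figure D1:**
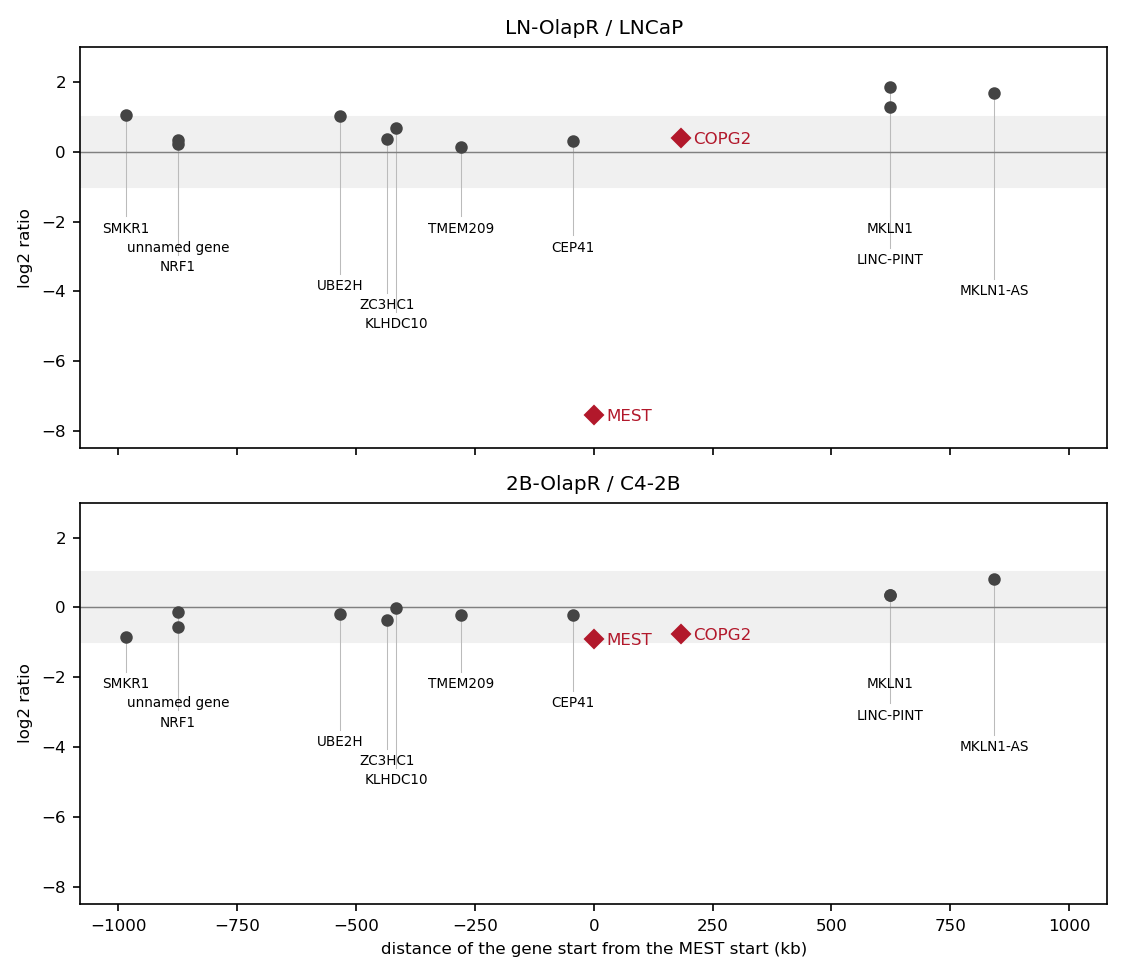
Log2 ratio of genes around MEST (vertical axis) by the distance of their start from the MEST start in kb (horizontal axis), for LN-OlapR over LNCaP (top) and 2B-OlapR over C4-2B (bottom). Red diamonds are MEST and COPG2, grey points are genes outside the list, the shaded band is the range under 2-fold, and at 624 kb in the top panel LINC-PINT is the upper point. MEST is at -7.55 in the top panel while its 11 neighbours lie between 0.15 and 1.84.

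Across all imprinted genes, the LN pair did not show a general decrease. Of 30 genes analysed in the LN pair, 15 had log2 ratios above 0 and 15 below, with a median of 0.02 beside -0.004 over all genes. At least 2-fold lower were 3 genes and at least 2-fold higher were 3 (3 of 30 each, beside 4.83% lower and 4.64% higher over all 15373 genes). One of the lower genes is MEST, whose counts chose the list, and without it 2 were lower and 3 higher. Those lower were MEST, CDKN1C and WT1, and those higher were PEG10, IGF2 and RB1. With total count scaling the higher calls of IGF2 and RB1 ended, for IGF2 because its mean dropped to 0.993 normalized CPM, under the minimum. The middle 50% of log2 ratios ran from -0.34 to 0.38, somewhat wider than the -0.27 to 0.26 of all genes. The other 7 genes were below the expression minimum.

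In the 2B pair, 33 imprinted genes were analysed, 18 above 0 and 15 below, with a median of 0.05. CDKN1C, PEG3 and GRB10 were at least 2-fold lower (9.09%, beside 5.65% of all 15527 genes), and PPP1R9A was at least 2-fold higher (3.03%, beside 4.42%). MEST and WT1, called in the LN pair, were not called in the 2B pair, and the difference between the pairs was not tested. Of 29 genes analysed in both pairs, 8 were higher in both resistant lines, 7 were lower in both and 14 had opposite signs, while 18 stayed within 0.5 of 0 on the log2 scale in both. CDKN1C was the gene called in the same direction in both pairs. In the LN pair it passed the expression minimum only through its level in LNCaP. Shares over all genes were not computed for these counts across both pairs, so the counts describe the listed genes only.

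**Figure D2:**
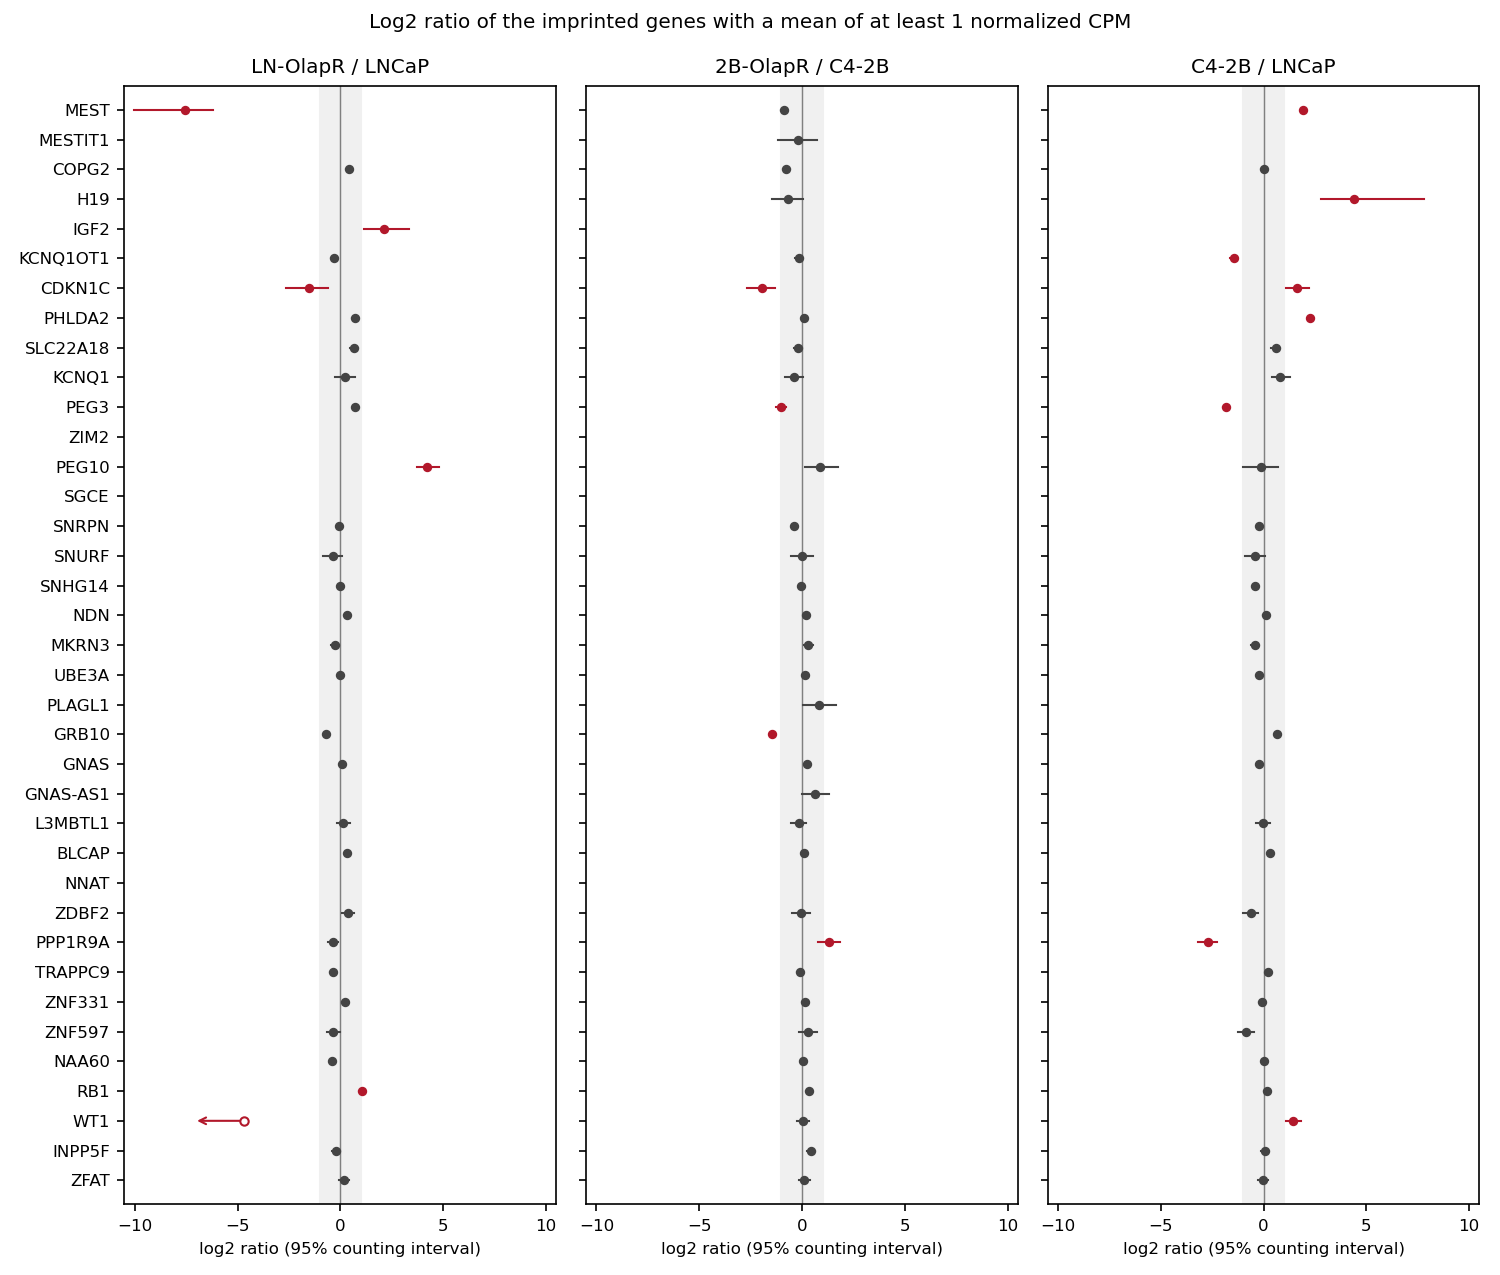
Log2 ratio of each imprinted gene past the expression minimum (points) with its 95% counting interval (lines) for LN-OlapR over LNCaP, 2B-OlapR over C4-2B and C4-2B over LNCaP. Red marks at least 2-fold, the shaded band is the range below it, and the open circle with an arrow is the bound for WT1, whose count in LN-OlapR was 0. Most genes lie inside the band, with 6, 4 and 8 red genes in the 3 panels.

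WT1, a zinc finger transcription factor of kidney and gonad development that is imprinted in some tissues only, was like MEST in its counts. It had 88 counts in LNCaP against 0 in LN-OlapR, and 182 in C4-2B against 193 in 2B-OlapR. WT1 passed the expression minimum in the LN pair only through its level in LNCaP (3.27 normalized CPM). As for MEST, the LN-OlapR library alone was at or near 0. With its 0 taken as 3 counts, WT1 was at least 25.5-fold lower in LN-OlapR than its parent, and the interval of the log2 ratio ended at -4.34, whereas the log2 ratio in the 2B pair was 0.07 (-0.23 to 0.37). Its 12 analysed neighbours within 1 Mb had a median log2 ratio of -0.12 in the LN pair, and 0 of them were called (beside 4.83% lower and 4.64% higher over all genes). These do not include the antisense gene WT1-AS, which starts 0.11 kb from WT1 and was below the expression minimum in that pair. WT1-AS had 46 counts in LNCaP against 0 in LN-OlapR, and 105 in C4-2B against 59 in 2B-OlapR, so it was also at 0 in LN-OlapR alone, and its reads may be shared with those of WT1.

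PEG10, a paternally expressed gene derived from a retrotransposon, had the highest log2 ratio of the 30 imprinted genes analysed in the LN pair. It had 32 counts in LNCaP against 533 in LN-OlapR, and 22 in C4-2B against 42 in 2B-OlapR. LN-OlapR was therefore high and the other 3 lines were low and near each other. The ratio in the LN pair was 18.9-fold, a log2 ratio of 4.24 (3.75 to 4.83) and the 49th highest of 15373 genes, and the log2 ratio in the 2B pair was 0.90 (0.14 to 1.73). SGCE, which encodes epsilon-sarcoglycan and starts beside PEG10 on the opposite strand, gave 3, 21, 0 and 5 counts in the same order. Although SGCE was below the expression minimum, LN-OlapR was again the highest library, with a log2 ratio of 2.82 (1.27 to 5.40) to LNCaP. The 4 analysed genes outside the list within 1 Mb had log2 ratios of 0.07 to 0.50 in the LN pair.

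PPP1R9A, the gene of the actin-binding protein neurabin, lies farther along the same region of 7q21 and showed another pattern. It had 386 counts in LNCaP against 263 in LN-OlapR, and 45 in C4-2B against 113 in 2B-OlapR, so both lines of the LN pair were above both lines of the 2B pair. The log2 ratio was -0.35 (-0.58 to -0.12) in the LN pair and 1.30 (0.80 to 1.84) in the 2B pair.

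At 11p15, neighbouring control regions govern H19 with IGF2 and KCNQ1OT1 with CDKN1C. H19, a maternally expressed noncoding RNA, had 2 counts in LNCaP against 29 in LN-OlapR, and 40 in C4-2B against 25 in 2B-OlapR. IGF2, the paternally expressed insulin-like growth factor, gave 10, 39, 18 and 1 counts in the same order. Both genes were thus near the counting limit in at least 1 library and low throughout. The mean of IGF2 in the LN pair, 1.02 normalized CPM, was just above the expression minimum. IGF2 passed it only through its level in LN-OlapR (1.67). The annotation holds another IGF2 gene model on the same strand, so its reads may be split. H19 and IGF2 were both higher in LN-OlapR than in LNCaP, with log2 ratios of 3.77 (2.08 to 7.18), below the expression minimum, and 2.12 (1.14 to 3.34). In the 2B pair the log2 ratio of H19 was -0.69 (-1.48 to 0.06) and that of IGF2, below the minimum, was -3.64 (-9.57 to -1.53).

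CDKN1C, which encodes the cell cycle inhibitor p57 and is expressed from the maternal copy, was lower in each resistant line than in its parent. Its counts were 41 in LNCaP against 12 in LN-OlapR, and 97 in C4-2B against 25 in 2B-OlapR. That gave a log2 ratio of -1.53 (-2.63 to -0.61) in the LN pair and -1.95 (-2.67 to -1.33) in the 2B pair. Its mean in the LN pair was 1.02 normalized CPM, just above the expression minimum, which it passed only through its level in LNCaP (1.525). KCNQ1OT1, the paternally expressed noncoding RNA that silences its neighbours in cis, gave 1414, 978, 392 and 361 counts. It was lower in both resistant lines by less than 2-fold, with log2 ratios of -0.33 (-0.45 to -0.21) and -0.14 (-0.35 to 0.07), the same sign as CDKN1C in each pair.

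The other maternally expressed genes beside CDKN1C did not share its direction in the LN pair. PHLDA2, a growth-restraining gene of the placenta, had 603 counts in LNCaP against 870 in LN-OlapR, and 2228 in C4-2B against 2392 in 2B-OlapR. SLC22A18, a membrane transporter gene, gave 328, 450, 375 and 332 counts. Their log2 ratios were 0.73 (0.58 to 0.89) and 0.66 (0.45 to 0.87) in the LN pair and 0.08 and -0.19 in the 2B pair. KCNQ1, a potassium channel gene over which KCNQ1OT1 runs on the opposite strand, gave 78 to 105 counts and was called in neither pair. Of the 13 analysed genes outside the list within 1 Mb of CDKN1C, 0 were called in the LN pair (beside 4.83% lower and 4.64% higher over all genes). Of 14 in the 2B pair 1, the zinc finger gene ZNF195, was at least 2-fold lower (-1.05, beside 5.65% of all genes).

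PEG3, a zinc finger gene expressed from the paternal copy, differed in direction between the pairs. It had 2060 counts in LNCaP against 2984 in LN-OlapR, and 436 in C4-2B against 220 in 2B-OlapR, so the LN lines lay above the 2B lines, and the log2 ratio was 0.74 (0.66 to 0.82) in the LN pair and -1.003 (-1.25 to -0.77) in the 2B pair. The latter was close to the limit and fell short of it when DESeq2 size factors (-0.99), upper quartile factors (-0.98) or a larger pseudocount were used. Its 41 analysed neighbours within 1 Mb in the 2B pair had a median log2 ratio of -0.45, and 6 of them were at least 2-fold lower (beside 5.65% of all genes) and 1, which has no symbol, was higher. The lower genes ran from ZIK1 (-3.13) to ZFP28 (-1.02). The median of 47 neighbours in the LN pair was -0.21 and ZIK1 was the 1 called (-1.38), so PEG3 and the median of its neighbours had the same sign in the 2B pair and opposite signs in the LN pair. Whether the neighbours bear on the PEG3 value was not tested. ZIM2, which shares its start region with PEG3 and whose reads may be split with it, gave 27, 22, 5 and 5 counts and was below the minimum in every comparison.

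The 15q11 cluster, whose loss from the father or the mother causes Prader-Willi or Angelman syndrome, showed small differences in both pairs. Its 6 analysed genes had log2 ratios of -0.36 to 0.30 in the LN pair and -0.40 to 0.30 in the 2B pair. SNRPN, which encodes a splicing protein, gave 5189, 4363, 3362 and 2579 counts in LNCaP, LN-OlapR, C4-2B and 2B-OlapR. The noncoding RNA SNHG14, which hosts small nucleolar RNAs and runs into UBE3A on the opposite strand, gave 9020, 7677, 5143 and 4962 counts. UBE3A, a ubiquitin ligase gene that SNHG14 silences on the paternal copy in neurons, gave 3860, 3272, 2497 and 2830. The log2 ratios of SNHG14 and UBE3A in the LN pair were -0.03 and -0.03. NDN, which encodes necdin, and MKRN3, a ring finger gene, gave 1032 to 1355 and 299 to 523 counts, and SNURF, which lies on the same transcripts as SNRPN, gave 57 to 99.

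Among genes outside these clusters, GRB10 and RB1 were called in 1 pair each. GRB10, an adaptor of insulin and IGF receptors, had 3600 counts in LNCaP against 1952 in LN-OlapR, and 4373 in C4-2B against 1610 in 2B-OlapR. It was lower in both resistant lines, with log2 ratios of -0.68 (-0.76 to -0.60) and -1.46 (-1.54 to -1.38). RB1, the retinoblastoma tumour suppressor, whose imprint concerns an alternative transcript, gave 754, 1344, 638 and 810 counts. Its log2 ratios were 1.04 (0.91 to 1.17) and 0.33 (0.17 to 0.48), and the call in the LN pair was lost with total count scaling (0.95).

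Most of the remaining imprinted genes differed little between the libraries of a pair. GNAS, which encodes the stimulatory G protein subunit, had the most counts, from 12233 to 18821, and log2 ratios of 0.08 (0.05 to 0.11) and 0.24 (0.20 to 0.27). In the LN pair its sign turned with total count scaling (-0.0085). BLCAP, ZNF331, INPP5F, ZFAT, NAA60, ZNF597, L3MBTL1, ZDBF2 and TRAPPC9 had log2 ratios from -0.39 (the acetyltransferase gene NAA60) to 0.39 (ZDBF2) in the LN pair and from -0.17 (L3MBTL1) to 0.43 (INPP5F) in the 2B pair. PLAGL1, a zinc finger gene of growth control, had 0 counts in LNCaP against 4 in LN-OlapR, and 22 in C4-2B against 40 in 2B-OlapR, and GNAS-AS1, the antisense gene at GNAS, gave 7, 11, 32 and 51. Both were thus lowest in LNCaP and highest in 2B-OlapR, with log2 ratios of 0.83 (0.06 to 1.67) and 0.65 (-0.01 to 1.34) in the 2B pair. NNAT, a neuronal gene inside BLCAP, gave 9 to 20 counts and was below the minimum in every comparison.

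Compared per kb of exons, the levels of the imprinted genes spanned several orders of magnitude. In LNCaP the highest was SNRPN with 56.5 normalized CPM per kb, followed by GNAS with 52.6 and NDN with 24.4. In C4-2B and 2B-OlapR the highest was PHLDA2 with 114 and 121. MEST, at 5.85 in LNCaP and 22.3 in C4-2B, was among the well expressed imprinted genes of the parental lines, whereas WT1 (0.80 and 2.16), CDKN1C (0.62 and 1.91) and PEG10 (0.18 and 0.16) were lower.

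**Figure D3:**
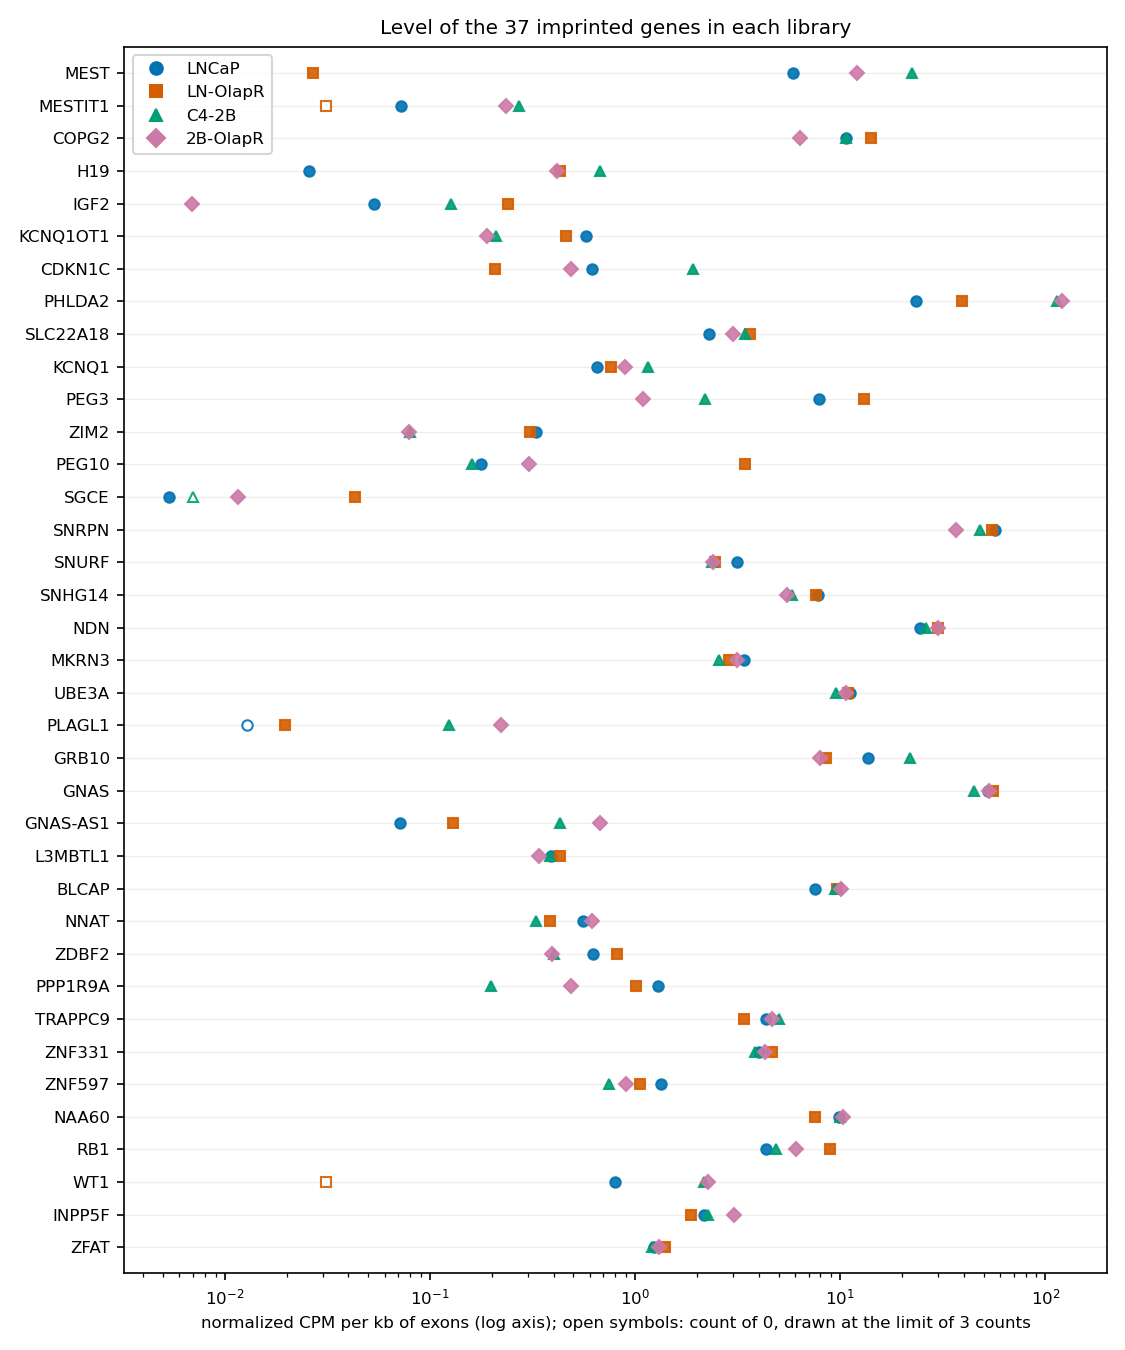
Level of the 37 imprinted genes with an entry, in normalized CPM per kb of exons on a log axis, with 1 symbol per library. Open symbols stand for a count of 0 and are drawn at the limit of 3 counts. In LN-OlapR, MEST is at 0.027 and WT1 is at 0 counts while the other 3 libraries lie between 0.80 and 22.3 for these 2 genes, and PEG10 is at 3.42 in LN-OlapR and at most 0.30 elsewhere.

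The parental lines were then compared, since each pair starts from its own level. C4-2B against LNCaP shares its libraries with both pairs, so its values are given side by side and not as independent evidence. Of 30 genes analysed, 5 were at least 2-fold higher in C4-2B (16.7%, beside 8.0% of all 15580 genes) and 3 were at least 2-fold lower (3 of 30, beside 7.18%), and the median was -0.01. Higher in C4-2B were H19 (log2 ratio 4.41, 2.77 to 7.81), PHLDA2 (2.28), MEST (1.93), CDKN1C (1.63) and WT1 (1.44). Lower were PPP1R9A (-2.69), PEG3 (-1.85) and KCNQ1OT1 (-1.46). H19 had 2 counts in LNCaP and a mean of 1.015 normalized CPM, just above the expression minimum, which it passed only through its level in C4-2B (1.955). By expressed copy, 9 of 11 paternally expressed genes were below 0 and 6 of 9 maternally expressed genes were above 0. The medians of the 2 classes were -0.40 and 0.59. These genes are not separate observations, since 4 of the 9 lie in the 15q11 cluster, where SNRPN, SNURF and SNHG14 overlap, and 5 of the 6 lie at 11p15. The counting interval lay wholly below 0 for 6 of the 9 and wholly above 0 for 5 of the 6. In the LN pair 6 of 12 paternally and 3 of 8 maternally expressed genes were above 0, and in the 2B pair 6 of 14 and 5 of 9. The difference between the comparisons was not tested.

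Because the LNCaP library stood apart in KLK3 and CD68, LN-OlapR was also set against C4-2B, an alternative added after the values were seen. Among 32 genes analysed, 6 were at least 2-fold lower in LN-OlapR, beside 8.18% of all genes, and 5 were at least 2-fold higher, beside 6.99%. Without MEST, whose counts chose the list, 5 of 31 were lower. MEST (-9.48), CDKN1C (-3.15) and WT1 (at least 69.2-fold lower with its 0 taken as 3 counts, and an interval of the log2 ratio that ended at -5.80) stayed lower and PEG10 (4.38) stayed higher. IGF2 (0.91) and RB1 (0.89) were no longer called, while GRB10, PHLDA2 and GNAS-AS1 were lower and PEG3, PPP1R9A, KCNQ1OT1 and ZDBF2 higher. C4-2B is not the parent of LN-OlapR, so these ratios also hold the differences between C4-2B and LNCaP. MEST, WT1 and CDKN1C were higher in C4-2B than in LNCaP (log2 ratios 1.93, 1.44 and 1.63), so their larger differences here follow from that. PEG10 was near level between the parental lines (-0.14).

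The genes that set, copy or protect imprints were described last. Of 22 listed, 18 had entries and all 18 were analysed, and the other 4 (ZFP57, DNMT3L, CTCFL and DPPA3) were not analysed here. In the LN pair 2 were at least 2-fold lower (beside 4.83% of all genes) and 0 higher (beside 4.64%). Of the 18, 13 were below 0, and the median was -0.14, beside -0.004 over all genes. In the 2B pair the counts were also 2 and 0 (beside 5.65% and 4.42%). There 14 of 18 were below 0, and the median was -0.17, beside -0.0003 over all genes. The 2 called genes were DNMT3A, a de novo DNA methyltransferase, and TET1, an enzyme that oxidizes methylcytosine, in each pair. The share of all genes called lower in both pairs was not computed, so this describes the listed genes only. DNMT3A had 1695 counts in LNCaP against 532 in LN-OlapR, and 544 in C4-2B against 211 in 2B-OlapR, with log2 ratios of -1.47 (-1.61 to -1.33) and -1.38 (-1.62 to -1.15). TET1 gave 143, 61, 114 and 17 counts, with log2 ratios of -1.02 (-1.48 to -0.58) and -2.73 (-3.59 to -2.02). In the 2B pair TET1 passed the expression minimum only through its level in C4-2B (5.57 normalized CPM). DNMT3B, the other de novo enzyme, fell just short of 2-fold with -0.98 and -0.96. By contrast, the genes that copy methylation at division were level or somewhat higher, with 0.11 and 0.07 for DNMT1 and 0.33 and 0.38 for its partner UHRF1. TRIM28, the cofactor through which zinc finger proteins protect imprints, had -0.19 and 0.05, and ZNF445, such a zinc finger gene, had -0.60 and -0.38. DNMT3A and DNMT3B had nearly the same log2 ratios in both pairs. DNMT3A was highest in LNCaP, with 63.05 normalized CPM against 22.8 in LN-OlapR and 26.6 in C4-2B. Its log2 ratio for C4-2B against LNCaP was -1.25 (-1.39 to -1.11), so LN-OlapR was low against LNCaP but near C4-2B. DNMT3B and TET1 were near level between the parental lines (0.04 and 0.07). The MEST and WT1 counts close to 0 were found in LN-OlapR and not in 2B-OlapR, and any link with the genes of this list was not tested.

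**Figure D4:**
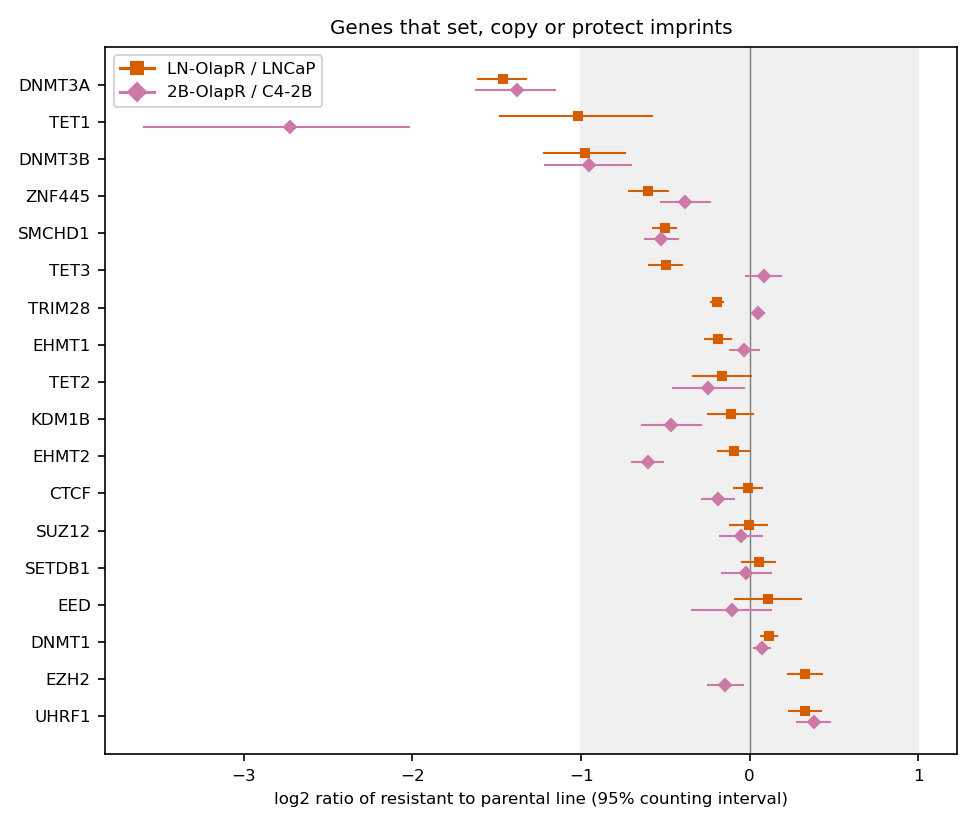
Log2 ratio with its 95% counting interval (horizontal axis) of the 18 genes that set, copy or protect imprints, for LN-OlapR over LNCaP (squares) and 2B-OlapR over C4-2B (diamonds). The shaded band is the range under 2-fold. DNMT3A and TET1 lie below it in both pairs, at -1.47 and -1.02 and at -1.38 and -2.73.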

How the data were processed

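RNA-seq libraries of 4 cell lines, 1 per line, were analysed. The authors made stranded mRNA libraries from total RNA and deposited estimated counts per gene, and the submitters' processing notes name STAR, Partek, GRCh38 and hg38 without versions. The annotation, the counting tool and whether strand was used in counting are not given in the sources used here. Of the deposited values, 46.2% are not whole numbers, and each of the 22637 genes sums to at least 10.0 over the libraries. Counts were rounded to whole numbers, since values were estimated and not raw counts as the design had assumed. Totals were 26394267 (LNCaP), 24278062 (LN-OlapR), 19950537 (C4-2B) and 20796946 (2B-OlapR).

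Libraries were scaled with TMM factors of edgeR 4.0.16 in R 4.3.3, and ratios were computed in Python 3.11.15 with SciPy 1.17.1. Log2 ratios had 0.5 counts added to each library, and a gene was analysed where its level averaged at least 1 normalized CPM across the 2 libraries compared. Intervals are conditional binomial (Clopper-Pearson) intervals at the 95% level and cover counting error only. With 1 library per line no model was fitted and no replicate could be left out. Positions and exon lengths are from GENCODE release 29, to which 37 of 37 imprinted genes and 21395 of 22637 genes matched by identifier, and promoter windows and microRNAs are from RefSeq on GRCh38.p14. The scripts were tested on simulated data.

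All imprinted genes with an entry are named, and of the other lists those at least 2-fold different in a pair and the extremes. WT1-AS, ZNF195, ZIK1, ZFP28, CEP41, COPG2IT1, SMKR1, LINC-PINT, MKLN1-AS, PAGE1 and XAGE1A were named after their values were seen. The imprinted genes and the other lists were chosen with earlier results of these data known, so they are not independent of them. Alternatives were total count, DESeq2 1.42.0 and upper quartile scaling, a pseudocount of 2, other expression minimums, other fold limits and other definitions of the list, and, added after the data were seen, unrounded counts and C4-2B as the reference of LN-OlapR.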

Additional observations from a re-analysis of the deposited data

Results flagged for a closer look

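IGF2, PEG3 and PPP1R9A, which were at opposite sides of 0 in the 2 pairs, were marked for a closer look. They were not the only such genes. WT1 (log2 ratios -7.26 and 0.07) and H19 (3.77 and -0.69) also had opposite signs and a large gap, with 2B pair intervals that included 0. IGF2 was higher in LN-OlapR but lower in 2B-OlapR relative to their parents. Its 2 log2 ratios differed by 5.76, with 1 count in 2B-OlapR and 10 in LNCaP. PEG3 was higher in LN-OlapR and lower in 2B-OlapR, a difference of 1.74 between the log2 ratios. PPP1R9A was lower in LN-OlapR and higher in 2B-OlapR, a difference of -1.65 (LN pair minus 2B pair). With 1 library per line, these differences were not tested.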

How the results depend on the processing

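Counts of called imprinted genes moved with the limits used. In the LN pair, the 3 lower genes became 1 with a minimum mean of 10 normalized CPM and 6 with C4-2B as the reference, and the 3 higher genes became 1 with total count scaling, 5 with a minimum of 0.1, 6 with no filter, 6 at a 1.5-fold limit and 5 with C4-2B as the reference. In the 2B pair, the 3 lower genes became 6 at 1.5-fold and 0 at 4-fold. The 1 higher gene of the 2B pair became 2 with a minimum of 0.1 or no filter, 4 at 1.5-fold, and 0 with a minimum of 10, at 4-fold or without genes imprinted only in some tissues or isoforms. For C4-2B against LNCaP, the 3 lower genes became 5 with no filter or at 1.5-fold and 1 at 4-fold or without genes that overlap another of their locus, and the 5 higher genes became 9 with a minimum of 0.1 or no filter, 2 with a minimum of 10 or at 4-fold, 8 at 1.5-fold and 3 without genes imprinted only in some tissues. Apart from the scaling and the reference, these changes follow from the limits and list definitions themselves. With total count scaling, RB1 fell short of 2-fold (log2 ratio 0.95) and the mean of IGF2 fell under the minimum (0.993 normalized CPM). With C4-2B as the reference, the ratios also hold the differences between C4-2B and LNCaP. Medians of the list ranged from -0.11 (total count scaling) to 0.18 (C4-2B as the reference) in the LN pair and from -0.05 (without genes imprinted only in some tissues or isoforms) to 0.098 (without overlapping genes) in the 2B pair, so their sign was not fixed. For single genes, 458 values stayed within their counting intervals and 7, all under total count scaling, left them. No paired analysis was possible because the labels give no replicate numbers and each line has 1 library. Depth limits MEST, MESTIT1, WT1, H19, IGF2, SGCE and PLAGL1, whose lowest counts were 0 to 3.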

Other observations

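A further 46 genes described as imprinted in some human tissues were listed beside the 48, and 22 of them had entries. In the LN pair 15 were analysed, 4 were at least 2-fold higher (beside 4.64% of all genes) and 1 was lower (beside 4.83%), with a median log2 ratio of 0.06. DIO3, the thyroid hormone deiodinase gene of the 14q32 cluster, had 6 counts in LNCaP against 62 in LN-OlapR, and 17 in C4-2B against 47 in 2B-OlapR. It was higher in each resistant line, with log2 ratios of 3.47 (2.37 to 5.07) and 1.42 (0.62 to 2.34). FAM50B gave 29, 126, 364 and 437 counts in the same order, with log2 ratios of 2.31 and 0.25. DDC, an aromatic amino acid decarboxylase gene beside GRB10, gave 97, 192, 528 and 293 counts and had log2 ratios of 1.19 and -0.87. GABRG3, a GABA receptor gene, had 15 counts in LNCaP against 36 in LN-OlapR, with a log2 ratio of 1.44 (0.56 to 2.44). ERAP2, an aminopeptidase gene, had 47 counts in LNCaP against 14 in LN-OlapR, and 14 in C4-2B against 40 in 2B-OlapR. Its log2 ratios were -1.51 (-2.52 to -0.66) in the LN pair and 1.46 (0.59 to 2.49) in the 2B pair. In these calls DIO3, GABRG3 and ERAP2 passed the expression minimum only through the library in which each was higher.

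In the 2B pair 15 were analysed, 2 were at least 2-fold higher (beside 4.42% of all genes) and 1 was lower (beside 5.65%), with a median log2 ratio of 0.14. SLC22A3, an organic cation transporter gene, had 5 counts in LNCaP against 2 in LN-OlapR, and 4227 in C4-2B against 331 in 2B-OlapR. It was thus near the counting limit in both lines of the LN pair and had a log2 ratio of -3.69 (-3.86 to -3.53) in the 2B pair. PWAR5, a noncoding RNA of the 15q11 cluster, gave 0, 0, 22 and 0 counts and was below the expression minimum.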
